A study of Mus musculus with 4 samples.

Results

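The 36 genes of fatty acid oxidation and ketogenesis were taken by name and compared between the livers of LB1 mice and of control mice. They comprised 50 of the 41174 probes on the array, out of 27975 gene names in all. The array files named 33 of the genes as listed, and 3 were found under older names: Eci2 as Peci, Plin2 as Adfp and Plin5 as 2310076L09Rik. The study gave mice a Lactobacillus isolate from ostrich and followed body weight, gut microbes and metabolism. Total RNA of 4 livers was labelled with Cy3 and hybridised to 1 Agilent whole-genome array per liver: 2 LB1 mice (replicates 1 and 2) and 2 control mice (replicates 1 and 2). All were female BALB/c mice killed 20 days after inoculation, and no allele or transgene is named for either group. The name LB1 is not spelled out in the labels, nor is the treatment of the controls.

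Liver cells burn long-chain fatty acids in 2 organelles. In mitochondria the carnitine shuttle carries the acyl chains through the inner membrane, and beta-oxidation then shortens them step by step to acetyl-CoA, which the liver exports as ketone bodies in fasting. Peroxisomes shorten very long and branched chains, and acyl-CoA thioesterases release the free acids again. Most of these genes are known targets of the fatty acid receptor PPAR alpha.

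Levels are given as the log2 processed signal minus the 75th percentile of the same array, so that a level compares arrays for 1 probe and not 1 probe with another. Of the 50 probes, 48 were tested, and 2 (1 of 3 for Hadha and 1 of 3 for Ucp2) were well above background on too few arrays. Each of the 36 genes kept at least 1 tested probe and is represented by its brightest one. A gene is called higher or lower where limma gave a Benjamini-Hochberg adjusted p under 0.05 over all 22974 tested probes. A rank or permutation test of 2 arrays against 2 cannot give a p below 0.333. The labels name separate mice, so the spread is between animals, but each group held only 2.

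The 2 LB1 arrays were dimmer: their 75th percentiles were 147 and 80.8 units of signal, against 411 and 415 units on the control arrays. Scanner saturation marked 104 and 64 spots on the LB1 arrays and 266 and 297 on the control arrays. After scaling, the lowest saturated level was 8.46 and 9.29 on the LB1 arrays and 6.98 and 6.90 on the control arrays. Over all tested genes LB1 minus control had a median of 0.29 (log2), so zero is not the middle of this comparison. Each of 2 slides held 1 LB1 and 1 control array of the same replicate number. Hepatocyte markers were bright in every liver, but 5 of 8 tested were saturated, and with these left out their linear levels summed to 108 and 95.8 on the LB1 arrays and 121 and 145 on the control arrays. All 4 hepatocyte markers called higher were saturated. Of 10 mesothelium markers 8 were tested and 7 were called higher, with sums of 14.8 and 49.9 in LB1 livers against 1.63 and 0.272 in control livers. Of 5 adipocyte markers tested, Car3, which liver also expresses, was saturated, and the list without it summed to 2.77 and 3.54 in LB1 livers and to 1.88 and 1.72 in control livers. Of its 4 unsaturated markers 1 was called higher, and Plin1, Cfd, Retn and Lep were not above background on any array. Striated muscle markers summed to 0.972 and 0.867 in LB1 livers against 0.250 and 0.177 in control livers, with 3 of 3 tested called higher. Ckm, Myh4, Actn3, Myl1 and Mb were not above background on any array. Acta1 of the muscle list and Lrrn4 of the mesothelium list were well above background on 0 control arrays. Krt19, Rspo1 and Nkain4 of the mesothelium list were so on 1. These genes entered the test only through the LB1 livers, where they were high, so their calls carry no weight of their own. Macrophage and Kupffer cell markers summed to 106 and 113 in LB1 livers against 108 and 114 in control livers, with 0 called higher and 2 called lower of 10. The part of these differences between the livers in the results below was not tested. In whole liver, fewer cells of a type and less RNA per cell cannot be told apart.

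Fatty acid oxidation genes did not move together. Of the 36, 9 (25%) were called higher in LB1 livers, 5 (13.9%) were called lower and 22 did not pass the test. The 5 include Acot2, which entered the test only through the control livers. Over all 15784 genes tested 21.7% were called higher and 9.78% lower, so under this scaling both shares of the fatty acid oxidation genes lay close to the background. This depended on the setting. With quantile normalization 3 of the 36 were called higher and 6 lower, against 12.4% and 13.1% of all genes. With normexp background correction they were 8 and 18, against 46% and 20.6%, which is not close. Under the main scaling the median difference of the 36 genes was -0.052, with 0.067 on slide 1 and -0.067 on slide 2, beside 0.29 for all genes. Both LB1 arrays lay above both control arrays for 15 genes (41.7%, against 49.2% of all genes) and below them for 13 (36.1%, against 27.5%), and the groups overlapped for 8. Without control replicate 1 limma called 0 higher and 0 lower (0.602% and 0.038% of all genes), with 7 higher and 4 lower at an unadjusted p under 0.05. Without control replicate 2 it also called 0 and 0 (0% and 0.00634% of all genes), with 6 higher and 4 lower unadjusted. Without LB1 replicate 1, 9 were called higher and 10 lower (29.1% and 17% of all genes), and without LB1 replicate 2, 8 and 3 (17% and 7.39%).

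**Figure D1:**
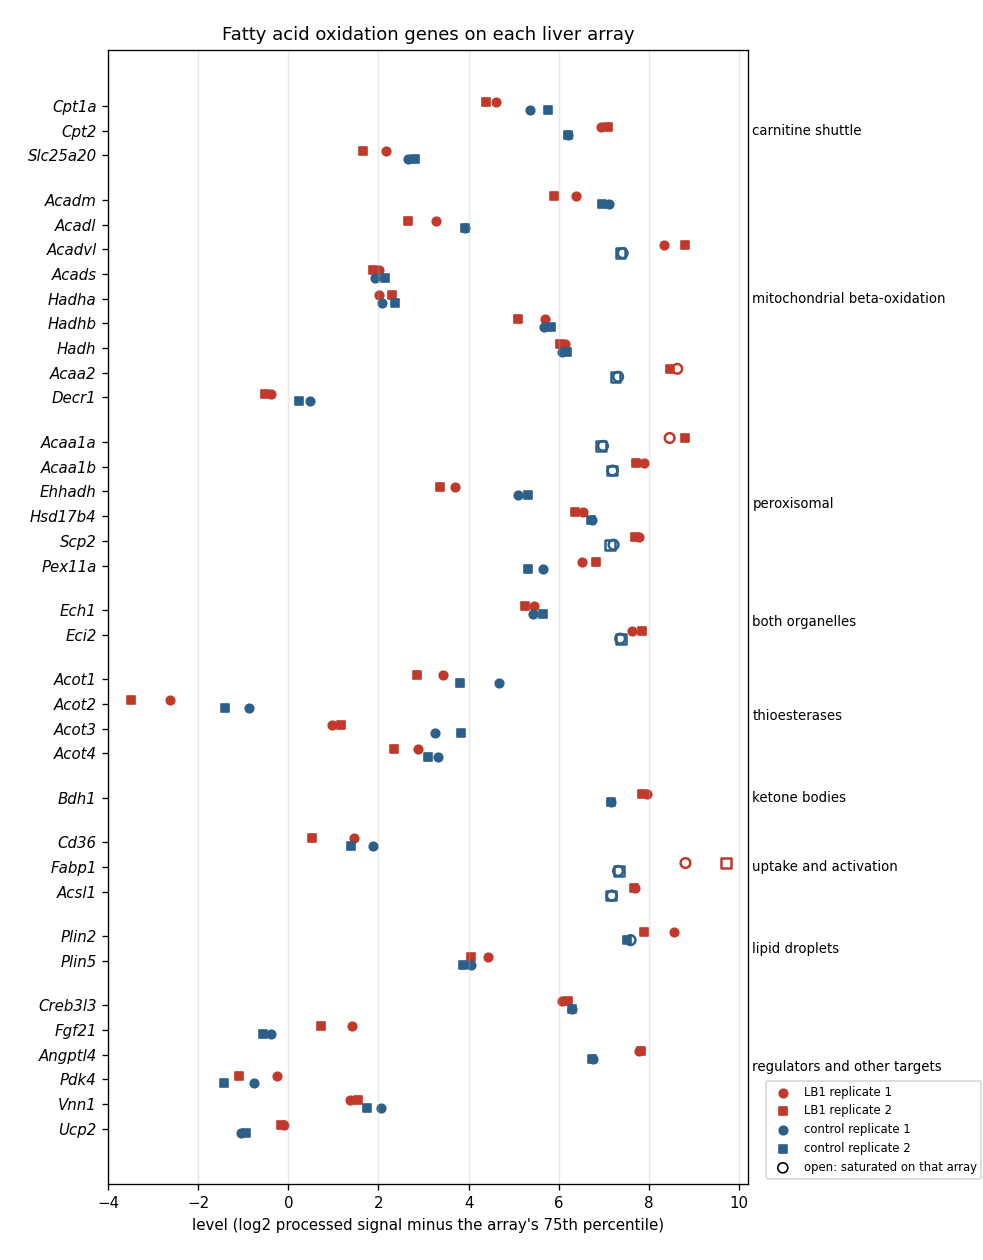
Level of each fatty acid oxidation gene on each array (x axis, log2 processed signal minus the array's 75th percentile), 1 row per gene at its brightest probe, grouped by role. Red points are LB1 livers and blue points are control livers, circles are replicate 1 and squares replicate 2, and open symbols are saturated on that array. Rows cannot be compared with each other. The blue symbols between about 7 and 8 are mostly open, while the LB1 symbols of the same genes lie to their right, except those of Acadm, which lie to the left.

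Saturation divided the genes called higher. Of the 36 genes, 9 were saturated on at least 1 array, and for 8 of these both control arrays were saturated. Where both controls are saturated the true control level may be higher than the measured one, so LB1 minus control is an upper limit and a positive value does not settle the direction. Where an LB1 array is saturated as well, the difference is no limit either. Of the 9 genes called higher, both controls were saturated for Acadvl, Acaa2, Acaa1a and Fabp1, and so were 1 LB1 array for Acaa2 and Acaa1a and 2 for Fabp1. Among the 27 genes saturated on no array, 5 (18.5%) were called higher and 5 (18.5%) lower, against 21.1% and 9.88% of all unsaturated genes, and their median was -0.28 against 0.28. Among all 247 saturated genes of the array 61.5% were called higher and 3.64% lower, with a median of 1.14.

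By signal, the genes fell into a bright and a less bright class. Of the 17 genes with a mean level over 6, 7 were called higher and 0 lower (limma), with a median of 0.67. Over all genes in that band 45.8% were called higher and 2.25% lower, with a median of 0.80. The 8 of these 17 that were unsaturated had a median of 0.35, and 3 were called higher, against 36.5% higher and 1.42% lower of all unsaturated genes at that level. Of the 19 genes with a mean level under 6, 2 were called higher and 5 lower, with a median of -0.60. All genes below that level had a median of 0.26, with 20.7% called higher and 10.1% lower.

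**Figure D2:**
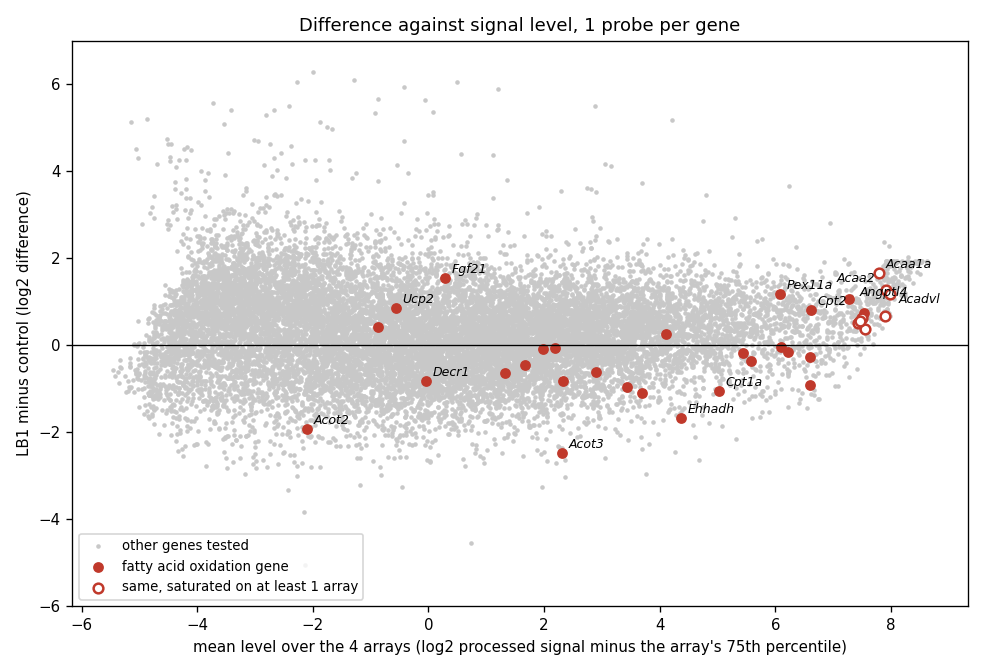
LB1 minus control (y axis, log2 difference) against the mean level over the 4 arrays (x axis, log2 processed signal minus the array's 75th percentile), 1 point per gene tested. Fatty acid oxidation genes are in red, open where saturated on at least 1 array, with called ones named, and other genes are in grey; Fabp1, saturated on all 4 arrays, is left out. The red points below a level of 6 lie mostly under zero, and the open ones at the right edge lie above it, where the grey points also turn upward.

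Calls in the carnitine shuttle differed under the main scaling. Cpt1a, the outer-membrane carnitine palmitoyltransferase that sets the rate of mitochondrial entry, was called lower and Cpt2, its inner-membrane partner, was called higher. Cpt1a had levels of 4.61 and 4.39 in LB1 livers, against 5.35 and 5.76 in control livers. Both LB1 arrays were below both controls, by 0.75 on slide 1 and 1.37 on slide 2, a difference of -1.06 ± 0.25 (SE, n = 2 each), or 2.08-fold lower, with an adjusted p of 0.0359 (limma). With the slide as a block the first probe had an adjusted p of 0.0505 (limma), so the call was lost. A second Cpt1a probe gave -1.06 with an adjusted p of 0.0327 (limma). The first probe is a mean of 10 spots, and the second lies elsewhere in the transcript. Cpt2 had levels of 6.94 and 7.10 in LB1 livers and 6.21 and 6.20 in control livers. This was a difference of 0.81 ± 0.21 (SE, n = 2 each), 1.75-fold, with an adjusted p of 0.0431 (limma), without saturation, but it was called under 1 of 5 scalings or background corrections and ranged down to 0.18. With the slide as a block its adjusted p was 0.0637 (limma), so the call was lost. All unsaturated genes with a mean level of 6 or more, as Cpt2 had, showed a median of 0.71, with 36.5% called higher. The difference of Cpt2 was thus close to that of other genes as bright. Slc25a20, the carrier that exchanges acylcarnitine for carnitine, had levels of 2.17 and 1.65 in LB1 livers and 2.66 and 2.82 in control livers. Its LB1 arrays were both lower, but -0.83 ± 0.27 did not pass (adjusted p = 0.0691, limma). Over 5 scalings or background corrections Slc25a20 was called lower under 3.

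Among the 9 mitochondrial beta-oxidation genes 2 were called higher, both saturated on both control arrays, 1 was called lower and 6 did not pass. Over all genes 21.7% were called higher and 9.78% lower. The median of the 9 was -0.095, and the 7 unsaturated ones had a median of -0.37. Decr1, the dienoyl-CoA reductase needed for unsaturated chains, was the one called lower. It had levels of -0.39 and -0.53 in LB1 livers, against 0.47 and 0.24 in control livers. The arrays did not overlap, and the difference was -0.81 ± 0.22 (SE, n = 2 each), 1.76-fold lower, with an adjusted p of 0.0474 (limma). With the slide as a block the call was lost (adjusted p = 0.0619, limma). Its second probe, well above background on 1 of 2 LB1 arrays, gave -1.21 with an adjusted p of 0.0528 (limma), or 0.0348 with the block. That probe entered the test only through the control livers, where it was high, so it adds no weight to the call.

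The acyl-CoA dehydrogenases take the first step of each round, on chains of different length. Acadm, for medium chains, had levels of 6.38 and 5.90 in LB1 livers and 7.12 and 6.97 in control livers. Acadl, for long chains, had levels of 3.28 and 2.64 in LB1 livers and 3.92 and 3.92 in control livers. Neither pair of groups overlapped, yet -0.91 ± 0.26 for Acadm (adjusted p = 0.0524, limma) and -0.96 ± 0.29 for Acadl (adjusted p = 0.0581, limma) fell just short of the threshold. Under each of the other 4 scalings both were called lower. Acads, for short chains, had levels of 2.00 and 1.88 in LB1 livers and 1.93 and 2.15 in control livers, which overlapped. It was called lower under 1 of 5 scalings or background corrections. Acadvl, for very long chains, had levels of 8.34 and 8.80 in LB1 livers and 7.42 and 7.37 in control livers, where both controls were saturated. Its difference of 1.17 (adjusted p = 0.0305, limma) is therefore an upper limit, and quantile normalization gave -0.18.

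The later steps of the spiral showed no unsaturated call under the main scaling. Hadha and Hadhb encode the subunits of the mitochondrial trifunctional protein. Hadha had levels of 2.02 and 2.30 in LB1 livers and 2.09 and 2.36 in control livers, and Hadhb 5.69 and 5.09 in LB1 livers and 5.68 and 5.84 in control livers. Both overlapped between the groups, as did Hadh, the short-chain hydroxyacyl-CoA dehydrogenase, with 6.13 and 6.04 in LB1 livers and 6.07 and 6.18 in control livers. Over 5 scalings or background corrections Hadhb was called lower under 3, and Hadha and Hadh under 1 each. A second Hadha probe was not well above background in LB1 livers and did not pass (adjusted p = 0.119, limma), so no difference is given for it. Acaa2, the mitochondrial thiolase that releases acetyl-CoA, had levels of 8.63 and 8.47 in LB1 livers and 7.32 and 7.26 in control livers. It was called higher (adjusted p = 0.0232, limma), but both controls and spots on LB1 replicate 1 were saturated, so that neither the size nor the direction is settled.

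The peroxisomal genes showed the same division. Of 6, 2 were called higher, 1 lower and 3 did not pass, beside 21.7% higher and 9.78% lower of all genes. The median of the 6, 0.59, became -0.28 once the 3 saturated genes were left out. Ehhadh, the peroxisomal bifunctional enzyme and a classical PPAR alpha target, had levels of 3.71 and 3.37 in LB1 livers, against 5.10 and 5.31 in control livers. The groups lay more than 1 log2 unit apart on both slides (-1.40 and -1.94), a difference of -1.67 ± 0.24 (SE, n = 2 each), 3.18-fold lower, with an adjusted p of 0.0215 (limma). Pex11a, which drives the elongation and division of peroxisomes, went the other way, with 6.51 and 6.82 in LB1 livers against 5.65 and 5.32 in control livers. The difference over its 10 spots was 1.18 ± 0.25 (SE, n = 2 each), 2.26-fold, with an adjusted p of 0.0297 (limma), and it lay between 0.54 and 1.18 over 5 scalings, 3 of which called it. All unsaturated genes with a mean level of 6 or more, as Pex11a had, showed a median of 0.71, with 36.5% called higher. Hsd17b4, the bifunctional enzyme of branched chains, had 6.55 and 6.37 in LB1 livers and 6.74 and 6.73 in control livers, a difference of -0.28 that did not pass (adjusted p = 0.346, limma). Over 5 scalings or background corrections Hsd17b4 was called lower under 2.

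Acaa1a, a peroxisomal thiolase, was read by 3 probes, and the brightest could not settle its direction. The sequence of 1 other probe is shown because it was saturated on no array and was called lower. It lies on mouse chromosome 9 at chr9:119255643-119256863 (build mm9, as the array files give it). It is 60 bases long and covers 1221 bases of genome, so it crosses a splice junction.
Acaa1a probe at transcript base 722: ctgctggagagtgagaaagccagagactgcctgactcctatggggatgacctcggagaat

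The probe at base 722 was saturated on no array and read 4.57 and 3.94 in LB1 livers, against 5.36 and 5.70 in control livers. It was called lower, with -1.28 ± 0.31 (SE, n = 2 each) and an adjusted p of 0.0363 (limma). The probe at base 1233 read 6.75 and 5.99 in LB1 livers and 7.06 and 6.98 in control livers. Both controls were saturated there, so the measured difference of -0.65 ± 0.32 (SE, n = 2 each) is an upper limit apart from its error. It was -0.31 on slide 1 and -0.99 on slide 2 and did not pass (adjusted p = 0.164, limma). The brightest probe, at base 1701, read 8.46 and 8.79 in LB1 livers and 6.98 and 6.94 in control livers and was called higher (1.67, adjusted p = 0.0212, limma), with both controls and LB1 replicate 1 saturated, which leaves its direction unsettled. The 1 Acaa1b probe, for a nearby thiolase gene, shared at most 21 of 60 bases with any Acaa1a probe, at any offset without gaps. It read 7.90 and 7.72 in LB1 livers and 7.19 and 7.19 in control livers, with both controls saturated (adjusted p = 0.0781, limma). Scp2, the thiolase and sterol carrier of peroxisomes, also had both controls saturated, with 7.78 and 7.70 in LB1 livers and 7.22 and 7.13 in control livers, and did not pass (adjusted p = 0.0925, limma).

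**Figure D3:**
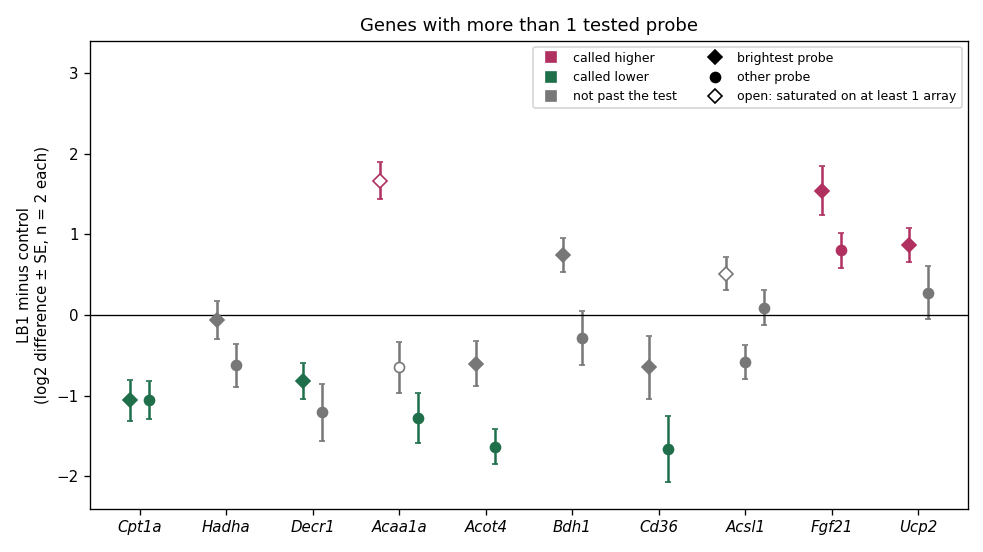
LB1 minus control (y axis, log2 difference) at each tested probe of the 10 genes with more than 1, as the fitted difference with its standard error (n = 2 each). Diamonds are the brightest probe of a gene and circles the others, and open symbols are saturated on at least 1 array; the second Hadha probe was not well above background in LB1 livers. Acaa1a, Bdh1 and Acsl1 have probes on both sides of zero (those of Acaa1a and Acsl1 above zero include a saturated one), while those of Cpt1a and Fgf21 were called in 1 direction.

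Mitochondrial genes (carnitine shuttle and beta-oxidation, 12 in all) had a median of -0.23, with -0.031 on slide 1 and -0.51 on slide 2. Of the 12, 3 were called higher and 2 lower, beside 21.7% and 9.78% of all genes. The mitochondrial median minus the peroxisomal one was -0.83. With saturated genes left out, an alternative chosen after seeing the data, it was -0.32, and with quantile normalization -0.35. Ech1 and Eci2, isomerases known from both organelles, did not pass. Ech1 had 5.45 and 5.26 in LB1 livers and 5.43 and 5.64 in control livers, which overlapped, and Eci2 had 7.64 and 7.85 in LB1 livers and 7.37 and 7.38 in saturated control livers. Over 5 scalings or background corrections Ech1 was called lower under 1.

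The 4 acyl-CoA thioesterases, which cut acyl-CoA to free acid and CoA, had the lowest median of the role groups. All 4 genes, and 5 of 5 of their probes, read lower on both LB1 arrays than on both control arrays, against 27.5% of all genes. Of the 4, 2 were called lower, Acot3 and Acot2 (the latter tested only through the control livers), against 9.78% of all genes. The median of the 4 was -1.51, with -1.50 on slide 1 and -1.52 on slide 2. Their probes lie within 65.6 kb of mouse chromosome 12 (85334071 to 85399647, mm9), and any pair of probes from different genes matched at no more than 24 of 60 bases at any offset without gaps. The genes are near copies made by local duplication, so cross-hybridisation between them was not tested beyond this count. Since the 4 neighbours all read lower on both LB1 arrays, the 120 bases upstream of 1 transcription start of each are shown. A second Acot3 start, with the overlapping stretch 84052031 to 84052150, is left out. The stretches are from RefSeq (GRCm38.p6, forward strand), with CCAAT and its complement ATTGG in capitals.
Acot2, chr12:83987741-83987860: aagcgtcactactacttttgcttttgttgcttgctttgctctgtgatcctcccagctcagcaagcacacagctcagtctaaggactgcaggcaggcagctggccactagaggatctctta
Acot1, chr12:84009382-84009501: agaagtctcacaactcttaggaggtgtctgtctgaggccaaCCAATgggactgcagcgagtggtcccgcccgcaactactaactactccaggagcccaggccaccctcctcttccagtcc
Acot4, chr12:84038259-84038378: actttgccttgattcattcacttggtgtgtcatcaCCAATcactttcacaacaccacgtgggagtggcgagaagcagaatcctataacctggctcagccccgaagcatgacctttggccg
Acot3, chr12:84052024-84052143: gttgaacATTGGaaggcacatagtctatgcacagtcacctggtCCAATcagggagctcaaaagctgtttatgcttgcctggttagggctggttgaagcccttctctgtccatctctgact

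CCAAT, the box read by NF-Y, was searched on both strands from 250 bases before to 50 after the start. It was found for all 4 thioesterases (for Acot2 at bases -244 to -240, outside the stretch shown) and for 16 of the 31 genes with a promoter in RefSeq, against 41.1% of all 27025 genes. The direct repeat AGGTCANAGGTCA, the element of PPAR alpha with its partner RXR, was found in 0 of the 31, against 0.0481% of all genes. A looser form, AGGNCANAGGNCA, which overlaps the strict one, was found in 1 of the 31, Fabp1, against 0.451%. A match describes the letters of this window only.

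Acot3, a peroxisomal thioesterase, had levels of 0.97 and 1.17 in LB1 livers, against 3.26 and 3.84 in control livers. The groups lay more than 2 log2 units apart on each slide, and the difference of -2.48 ± 0.28 (SE, n = 2 each), 5.58-fold lower, had an adjusted p of 0.0201 (limma). It was called lower under all 5 scalings, as were Cpt1a and Ehhadh. Acot2, the mitochondrial thioesterase, had levels of -2.63 and -3.50 in LB1 livers and -0.88 and -1.41 in control livers. It was called lower, with -1.92 ± 0.38 (SE, n = 2 each) and an adjusted p of 0.0267 (limma). On LB1 replicate 2 it was not well above background, and normexp background correction gave -0.16 with an adjusted p of 0.386 (limma). Acot2 thus entered the test only through the control livers, where it was high, so its call carries no weight of its own. Acot1, the cytosolic thioesterase, had 3.43 and 2.86 in LB1 livers and 4.68 and 3.80 in control livers, without overlap, and -1.10 ± 0.39 did not pass (adjusted p = 0.0850, limma), but did with the slide as a block (adjusted p = 0.0396, limma). Over 5 scalings or background corrections Acot1 was called lower under 3.

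Acot4, the peroxisomal thioesterase of dicarboxylic acids, had 2 probes of different size of response. The sequence of the second is shown because it, and not the brightest, passed the test; it lies at chr12:85384162-85384221 (mm9).
Acot4 probe at transcript base 813: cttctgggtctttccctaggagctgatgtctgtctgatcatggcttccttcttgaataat

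This probe read -0.19 and -0.42 in LB1 livers, against 1.38 and 1.28 in control livers, a difference of -1.63 ± 0.22 (SE, n = 2 each), 3.10-fold lower, with an adjusted p of 0.0212 (limma). The brightest probe, at base 1472, read 2.87 and 2.33 in LB1 livers and 3.32 and 3.09 in control livers, and -0.60 did not pass (adjusted p = 0.143, limma). Over 5 scalings or background corrections the brightest probe was called lower under 3. Both probes were thus lower on both LB1 arrays.

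**Figure D4:**
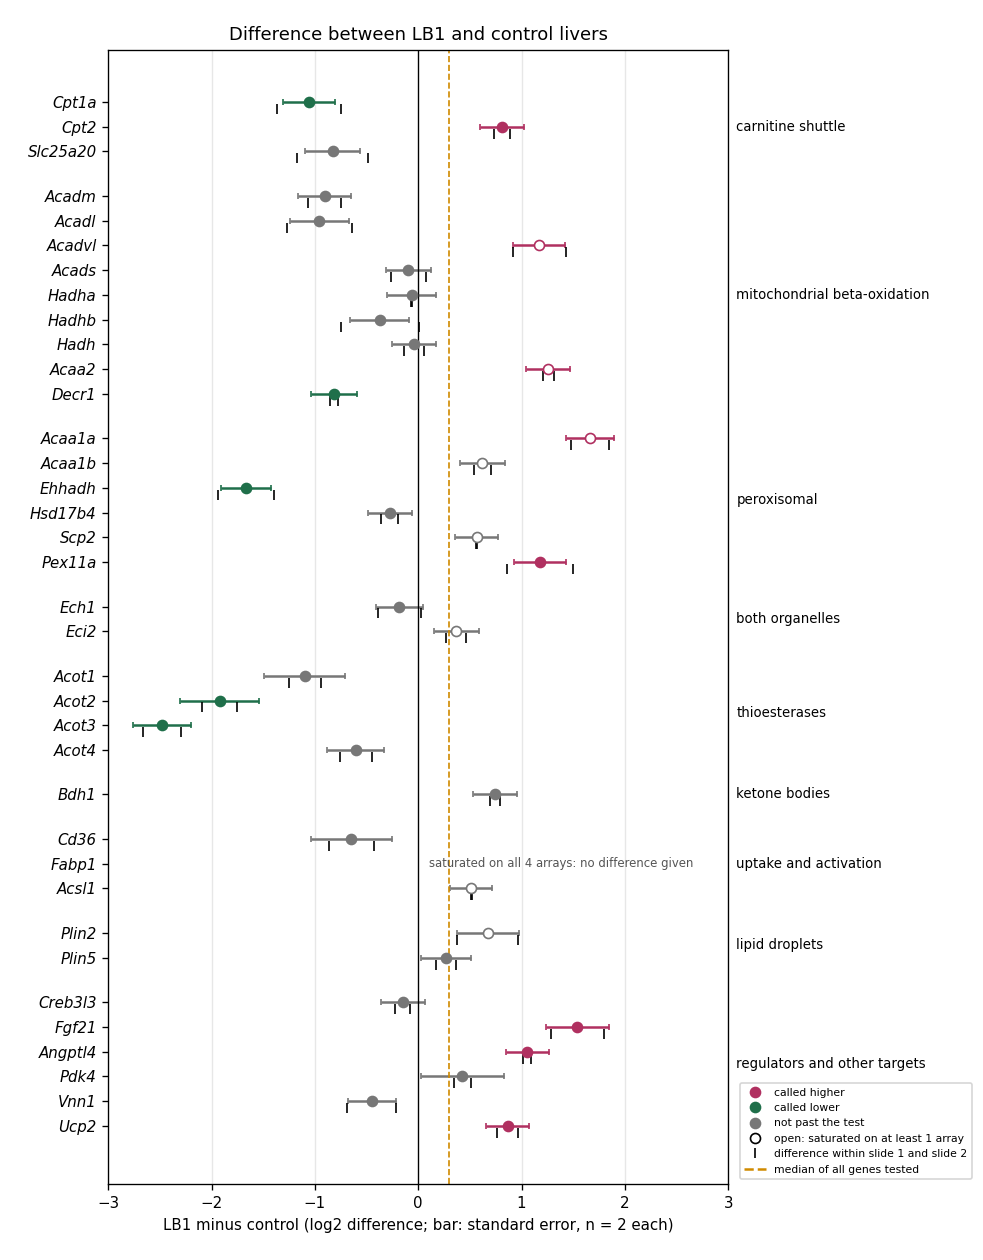
LB1 minus control for each fatty acid oxidation gene (x axis, log2 difference), as the fitted difference with its standard error (n = 2 each), 1 row per gene at its brightest probe and grouped by role. Red rows were called higher, green rows lower and grey rows neither, open symbols were saturated on at least 1 array, ticks give the difference within each slide and the dashed line is the median of all genes tested, 0.29; Fabp1 has no symbol. The 4 thioesterases all lie left of zero, and most open symbols lie right of the dashed line.

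Ketone body genes did not pass the test. Bdh1, the mitochondrial hydroxybutyrate dehydrogenase that interconverts the circulating ketone bodies, had levels of 7.95 and 7.86 in LB1 livers and 7.17 and 7.16 in control livers. The arrays did not overlap and the probe was not marked as saturated, but its control levels lay above the lowest saturated level of those arrays. The difference of 0.74 ± 0.21 missed the threshold (adjusted p = 0.0501, limma), and a second probe, of a different place in the transcript, gave -0.29 (adjusted p = 0.519, limma). Of 6 further ketone body genes 0 were called in either direction (limma). At an unadjusted p under 0.05 limma gave 0 of them under the main scaling, beside 5123 higher and 2445 lower of all 15784 genes. The methods' t-test gave 3 higher and 0 lower at that level, beside 3101 and 1693. Limma gave 0 and 2 with normexp (7574 and 3472 of all genes) and 0 and 2 with quantile normalization (3605 and 3353). It gave 0 and 1 with the array median (1682 and 4938) and 0 and 1 with the series' own values (7599 and 2709). A trend and robust spread in limma gave 2 and 1 (5421 and 2639). Probes well above background on all 4 arrays gave 1 and 1 (4989 and 2218 of 13191 genes). Of the 6, Acat1, a thiolase, had a difference of 0.31, Bdh2 of 0.49, Oxct1, which uses ketone bodies outside the liver, of 0.43, and Slc16a1, a monocarboxylate transporter, of 0.58, with adjusted p from 0.125 to 0.277 (limma). These 4 do not stand for the whole list of 6.

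Among the genes of uptake and activation, saturation limited Fabp1 and the brightest Acsl1 probe, but not Cd36. Fabp1, the abundant fatty acid binding protein of the hepatocyte, had levels of 8.82 and 9.71 in LB1 livers and 7.32 and 7.34 in control livers, and it was saturated on all 4 arrays, so no difference is given for it. Its promoter is shown because it alone held the looser repeat, at bases -67 to -55 on the reverse strand, in capitals (RefSeq, GRCm38.p6, forward strand).
Fabp1, chr6:71199759-71199878: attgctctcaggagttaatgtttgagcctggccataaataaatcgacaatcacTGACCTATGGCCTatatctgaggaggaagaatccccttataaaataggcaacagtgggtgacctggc

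Acsl1, the main acyl-CoA synthetase of liver, had 7.69 and 7.66 in LB1 livers and 7.18 and 7.16 in control livers, with both controls saturated. Its 2 unsaturated probes gave -0.59 (adjusted p = 0.0840, limma) and 0.091 (adjusted p = 0.766, limma), so no probe passed. Cd36, the fatty acid translocase, overlapped at its brightest probe, with 1.46 and 0.53 in LB1 livers and 1.89 and 1.40 in control livers. Over 5 scalings or background corrections that probe ranged from -1.28 to -0.65 and was called lower under 3. The other Cd36 probe read 0.55 and -0.42 in LB1 livers and 2.00 and 1.45 in control livers. It was called lower, with -1.66 ± 0.41 (SE, n = 2 each) and an adjusted p of 0.0379 (limma). The lipid droplet coat genes did not pass. Plin2 had 8.57 and 7.89 in LB1 livers and 7.60 and 7.51 in control livers, with control replicate 1 saturated, and Plin5 had 4.43 and 4.06 in LB1 livers and 4.06 and 3.89 in control livers.

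Among 6 regulators and other targets 3 were called higher, 0 lower and 3 did not pass (limma), all without saturation, with a median of 0.65. Of all unsaturated genes 21.1% were called higher and 9.88% lower. At an unadjusted p under 0.05 (limma) 3 of the 6 were higher and 0 lower, beside 5123 and 2445 of all 15784 genes. With the array median as reference 0 of the 6 regulators and other targets were called higher and 1 lower (7.89% and 25.6% of all genes). With normexp they were 3 and 2 (46% and 20.6%). Fgf21, a hormone that the fasting liver secretes, had levels of 1.40 and 0.71 in LB1 livers, against -0.39 and -0.57 in control livers. The difference was 1.54 ± 0.31 (SE, n = 2 each), 2.91-fold, with an adjusted p of 0.0267 (limma). The second probe, shown because both probes of this gene were called in the same direction, lies at chr7:52869680-52870294 (mm9) and crosses a splice junction, with 615 bases of genome for its 60.
Fgf21 probe at transcript base 467: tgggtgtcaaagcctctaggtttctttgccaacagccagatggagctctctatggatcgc

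It read -0.80 and -0.98 in LB1 livers and -1.78 and -1.60 in control livers, a difference of 0.80 ± 0.22 (SE, n = 2 each) with an adjusted p of 0.0488 (limma), or 0.0722 with the slide as a block, which loses this call. Both probes thus read higher on both LB1 arrays, and the gene was called under 4 of 5 scalings, with 0.91 to 1.54. Angptl4, a secreted inhibitor of lipoprotein lipase, had 7.77 and 7.84 in LB1 livers, against 6.76 and 6.74 in control livers. The difference was 1.06 ± 0.21 (SE, n = 2 each), 2.08-fold, with an adjusted p of 0.0264 (limma), and it was called under 3 of 5 scalings (0.42 to 1.06). Its control levels lay just under the lowest saturated level of those arrays. Ucp2, a carrier of the inner mitochondrial membrane, had -0.10 and -0.17 in LB1 livers, against -1.06 and -0.93 in control livers. The difference was 0.86 ± 0.21 (SE, n = 2 each), 1.82-fold, with an adjusted p of 0.0375 (limma), or 0.0566 with the slide as a block, which loses the call. Its second probe, well above background on 1 of 2 LB1 arrays, gave 0.28 (adjusted p = 0.531, limma).

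The other 3 of these genes did not pass under the main scaling. Creb3l3, a hepatocyte transcription factor that acts with PPAR alpha, had 6.08 and 6.21 in LB1 livers and 6.30 and 6.29 in control livers. Vnn1, a pantetheinase, had 1.36 and 1.54 in LB1 livers and 2.04 and 1.75 in control livers, and both it and Creb3l3 read lower on both LB1 arrays. Over 5 scalings or background corrections Vnn1 was called lower under 3 and Creb3l3 under 2. Pdk4, the kinase that shuts off pyruvate dehydrogenase, had -0.25 and -1.09 in LB1 livers and -0.76 and -1.43 in control livers, which overlapped.

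Beyond the 36 genes, 54 further genes of the pathway were tested, and 10 were called higher (8 of them unsaturated), 7 lower and 37 did not pass, with a median of 0.31. This was 18.5% higher and 13% lower, against 21.7% and 9.78% of all genes. The counts were 2 higher and 14 lower with the array median as reference (7.89% and 25.6% of all genes). They were 4 and 10 with quantile normalization (12.4% and 13.1%) and 9 and 14 with normexp (46% and 20.6%). With the slide as a replicate block they were 6 and 6 (20.9% and 8.79%). Without either control array the limma calls were lost, as for nearly all genes. By role, 3 of 9 regulators were called higher and 0 lower, and 1 of 3 electron transfer genes was called each way. Of 7 uptake and activation genes 0 were called either way under the main scaling (limma, also 0 at an unadjusted p under 0.05). At that unadjusted level limma gave 0 higher and 3 lower of the 7 with the array median (1682 and 4938 of all genes). It gave 0 and 2 with quantile normalization (3605 and 3353), and 0 and 1 with normexp (7574 and 3472). The series' own values gave 0 and 1 (7599 and 2709), and a trend and robust spread 2 and 0 (5421 and 2639). Of 10 other mitochondrial genes 2 were called higher and 3 lower, of 15 other peroxisomal genes 2 higher and 2 lower, and of 4 lipolysis genes 2 higher and 1 lower. Ppara itself had 5.09 and 5.70 in LB1 livers and 4.66 and 4.82 in control livers, without overlap, and 0.65 ± 0.29 did not pass (adjusted p = 0.132, limma).

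The size of each difference depended on the scaling. Cpt1a, Ehhadh and Acot3 were called lower under all 5 of the scalings and background corrections. Decr1 was called lower under 4, and Acot2, tested only through the control livers, under 3. Of the unsaturated genes called higher, Fgf21 and Ucp2 were called under 4, Pex11a and Angptl4 under 3 and Cpt2 under 1, and all 5 genes stayed above zero in each. The median of all genes itself moved between -0.34 with the array median as reference and 0.42 in the series' own value table. For Ucp2 the range was 0.23 to 0.86.

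The counts of calls differed between settings, and so did the shares over all genes and their closeness to the shares of the 36. Quantile normalization called 3 of the 36 genes higher and 6 lower, against 12.4% and 13.1% of all genes. With the array median as reference 2 were called higher and 13 lower (7.89% and 25.6% of all genes). With normexp background correction 8 were called higher and 18 lower (46% and 20.6%), and the value table of the series gave 8 and 14 (46% and 15.6%). A trend and a robust spread in limma gave 12 and 9 (25.8% and 12.2%). Probes well above background on all 4 arrays gave 10 and 7 (31.1% and 13.2%). The methods' t-test, at an unadjusted p under 0.05 and more than 2-fold, gave 7 and 3 (11.2% and 5.87%).

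**Figure D5:**
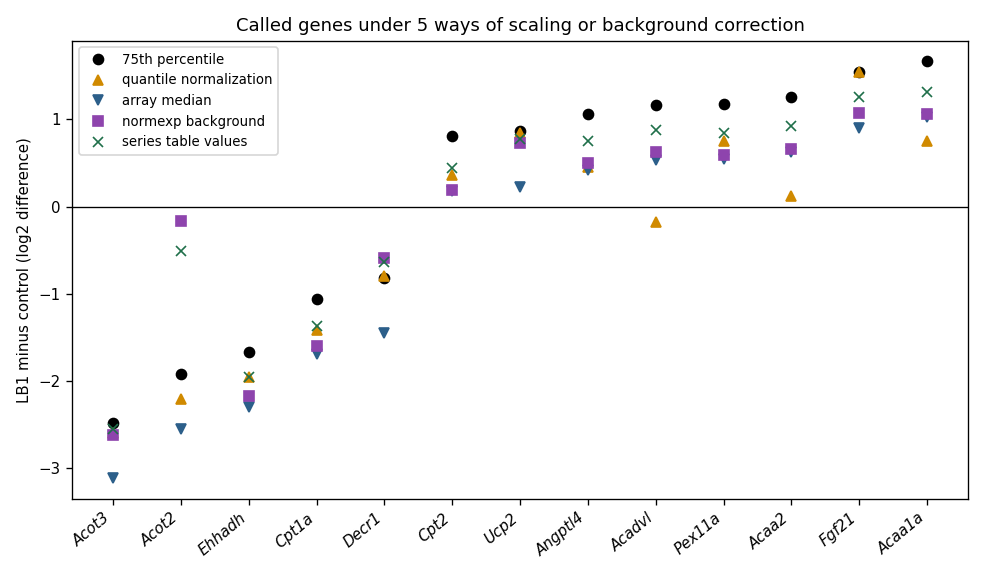
LB1 minus control (y axis, log2 difference) for the called fatty acid oxidation genes (x axis) under 5 ways of scaling or background correction, each with its own symbol; Fabp1, saturated on all 4 arrays, is left out. Acot3, Ehhadh and Cpt1a stay near or below -1 with every symbol, while Acadvl crosses zero with quantile normalization.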

How the data were processed

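The authors deposited 1 scanner file per array, made with Feature Extraction 10.5.1.1 per the file headers, whereas the series' text names another version. Its processed signal is an intensity that the authors' software had background-corrected, per the file headers. The deposited series table holds the same arrays' mean spot intensity, rounded to whole numbers and not background-corrected; its log2 after the scaling below served as an alternative. Here the log2 intensity minus each array's 75th percentile over 43379 non-control spots was averaged per probe. Probes that the scanner marked well above background on every array of a group were tested with limma 3.58.1 in R 4.3.3 (22974 probes, 15784 genes, 2 arrays a group, no covariate), with p-values adjusted by Benjamini-Hochberg and calls at 0.05. A gene took its brightest probe. Members and lists were chosen with earlier results of these data known, and the naming rule took every member, further ketone body genes and 2 other pathway genes, of which some items are not reported here. Scaling, background, filters, block and left-out arrays were varied. Same-numbered arrays' deviations correlated at 0.151, and these arrays also shared a slide. Probe positions are mm9 and promoters GRCm38.p6. The number of arrays limits the precision.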

Additional observations from a re-analysis of the deposited data

How the results depend on the processing

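The 9 higher and 5 lower calls depended on the scaling. Higher calls were 3 with quantile normalization, 2 with the array median as reference and 5 with saturated genes left out. Lower calls were 18 with normexp, 13 with the array median, 14 with the series' table, 9 with a trend and robust spread, and 3 by the methods' t-test (p under 0.05 and more than 2-fold). After Benjamini-Hochberg that t-test gave 0 in both directions. At an unadjusted p under 0.05 it gave 13 higher and 4 lower of the 36, beside 3101 and 1693 of all 15784 genes. Leaving out 1 array gave 0 to 9 higher and 0 to 10 lower; the lone array of a group is then assumed to vary like the other group. The mitochondrial minus peroxisomal median was -0.35 with quantile normalization, -0.32 without saturated genes, and -0.94 to -0.71 with 1 array left out. With the slide as a replicate block, which pairs the arrays that shared a slide and a replicate number, 7 were called higher and 4 lower. Over all genes these shares were 20.9% and 8.79%. With this block Cpt1a (adjusted p = 0.0505), Cpt2 (0.0637), Decr1 (0.0619) and Ucp2 (0.0566) missed the threshold in limma, and Acot1 passed it (0.0396). The filter on all 4 arrays gave 10 higher and 7 lower, without a value for Acot2.

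Direction turned between settings for genes with a saturated array and also for Bdh1, Plin5, Pdk4, Acads, Hadha and Hadh, which had no saturated array. With quantile normalization the differences were -0.18 for Acadvl, -0.23 for Acaa1b, -0.26 for Scp2, -0.65 for Eci2, -0.081 for Bdh1, -0.28 for Acsl1, -0.64 for Plin2 and -0.018 for Plin5. With the array median they were -0.013 for Acaa1b, -0.071 for Scp2, -0.27 for Eci2, -0.12 for Acsl1, -0.37 for Plin5 and -0.21 for Pdk4. With normexp they were -0.022 for Scp2, -0.22 for Eci2, -0.070 for Acsl1 and -0.29 for Plin5, in the series' table -0.048 for Plin5, and as a mean over probes -0.087 for Acaa1a. With 1 array left out Acads ranged from -0.20 to 0.013, Hadha from -0.20 to 0.076 and Hadh from -0.094 to 0.012. The cause was not tested. Saturation on the control arrays and the dimmer LB1 arrays limit the bright and the weak probes.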
